A study of Carya illinoinensis with 18 samples.

Results

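The clade IV *CBL* genes of pecan (*Carya illinoinensis*) are 4 duplicated genes that encode calcium sensors of the calcineurin B-like (CBL) family. They are *CiPaw.11G207000* on chromosome 11 (CIL1454S0059 in the expression table), *CiPaw.12G140900* on chromosome 12 (CIL0942S0100), *CiPaw.10G083600* on chromosome 10 (CIL1219S0001) and *CiPaw.09G110800* on chromosome 9 (CIL1385S0026). They were chosen as the duplicated members of this clade in the study's phylogeny and are 4 of the 31074 genes of the table. The table carries no CiPaw names. The 4 identifiers had been matched to the names by their day means, so the day means also served to identify the genes, whereas the spread between libraries did not. The pairing was taken over here and not derived again.

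CBL proteins bind Ca2+ through EF-hands and have no catalytic activity of their own. They recruit CBL-interacting protein kinases (CIPKs), which carry the signal on by phosphorylating channels, transporters and pumps. In *Arabidopsis*, clade IV includes CBL2, CBL3 and CBL6, which were localized at the tonoplast. CBL2 and CBL3 bring CIPKs to this vacuolar membrane, where ion storage and cell turgor are controlled. The roles of the pecan copies are not known from these files, and the names of their CIPK partners are not paired with identifiers of the table, so no partner was analysed here.

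The leaves came from grafted seedlings with the cultivar 'Pawnee' as scion on seedling rootstocks raised from 'Pawnee' seed, kept in a growth chamber. Leaves were taken every 3 d up to 15 d without water, which gives 6 groups (0 d, 3 d, 6 d, 9 d, 12 d, 15 d) of 3 libraries, 18 in all, described as biological repetitions of at least 3 plants each. The untreated leaves of 0 d are the only control among these libraries, so time without water cannot be told apart from time in the chamber. Levels are FPKM, fragments scaled to the length of the transcript and to the mapped fragments of the library. Comparing the 4 copies with each other relies on the transcript lengths used in this scaling, which were not checked. The shares and the order of the copies rest on that comparison.

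The FPKM of all genes summed to between 545598 and 587063 per library, the depth of sequencing is not kept by this unit, and libraries of the same day correlated at between 0.862 (12 d replicates 2 and 3) and 0.992 (15 d replicates 1 and 2) over the genes tested. No pair of libraries held identical values. Since the leaf was sampled in bulk, fewer cells of a type and less RNA per cell cannot be told apart. The authors' estimation by RSEM divides fragments that align to several genes, and whether the 4 copies share such fragments was not tested.

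The only sequences at hand for these genes were the primers of the study's qRT-PCR assay. They are shown because both of the most abundant copies were assigned the same pair, which was also listed for the clade III gene *CiPaw.11G071800* on chromosome 11. Whether they match the transcripts was not tested.
CiPaw.11G207000 and CiPaw.12G140900, forward: ggaggtgaagcaaatggtagt
CiPaw.11G207000 and CiPaw.12G140900, reverse: agcttcctcaaaggtcttgtc

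After 15 d without water the 4 copies of the clade were nearly even on average, whereas at 0 d *CiPaw.11G207000* dominated it. Within single libraries of 15 d the highest copy still had 1.18 to 1.82 times the FPKM of the lowest. *CiPaw.11G207000* was lower and *CiPaw.09G110800* higher at 15 d than at 0 d, and in the deposited values *CiPaw.12G140900* was slightly lower and *CiPaw.10G083600* kept about the same level. The summed FPKM of the clade fell to 42.5 ± 3.85 at 15 d, against 63.2 ± 3.47 at 0 d (SD, n = 3 each), and by less with median-ratio scaling or quantile normalization.

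In the deposited values *CiPaw.11G207000* had the widest range of levels of the 4 copies. Its FPKM was 29.8, 32.64 and 32.39 at 0 d, 31.23, 30.31 and 32.83 at 3 d, 18.86, 19.21 and 21.55 at 6 d, 14.43, 15.56 and 18.6 at 9 d, 14.27, 14.53 and 12.06 at 12 d, and 9.21, 9.99 and 11.11 at 15 d. The libraries of 0 and 3 d lay together at the top, and from 6 d on every library was below all of them. The mean at 15 d was 10.1 ± 0.955 FPKM, against 31.6 ± 1.57 FPKM at 0 d (SD, n = 3 each), or 0.320 of the level at 0 d. Between 3 and 6 d the mean fell by 11.6 FPKM, which was 53.9% of its difference between 15 and 0 d.

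Differences were tested with limma on log2(FPKM + 1) over the 24443 genes whose FPKM averaged 0.1 or more, two-sided with Benjamini-Hochberg adjustment. The threshold for a call was an adjusted p of 0.05. *CiPaw.11G207000* was not called at 3 d (-0.01 on the log2 scale, adjusted p from limma = 0.999). It fell by 0.64 on this scale at 6 d (adjusted p from limma = 0.00355), by 0.93 at 9 d (2.78e-04) and by 1.16 at 12 d (5.29e-05). For 15 d against 0 d the estimate on the log2 scale was -1.56, with a standard error of 0.12 and a 95% interval of -1.82 to -1.30 (adjusted p from limma = 2.31e-06). Between neighbouring days it was lower at 6 d than at 3 d (-0.64 on the log2 scale, adjusted p from limma = 0.00635), while the values were -0.28 for 9 against 6 d (0.718) and -0.23 for 12 against 9 d (1). The step at 15 against 12 d was called in the deposited values (-0.40, adjusted p from limma = 0.0342) but not after median-ratio scaling between libraries (-0.04, 0.835), which divides each library by the median ratio of its genes to their geometric mean over libraries.

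**Figure D1:**
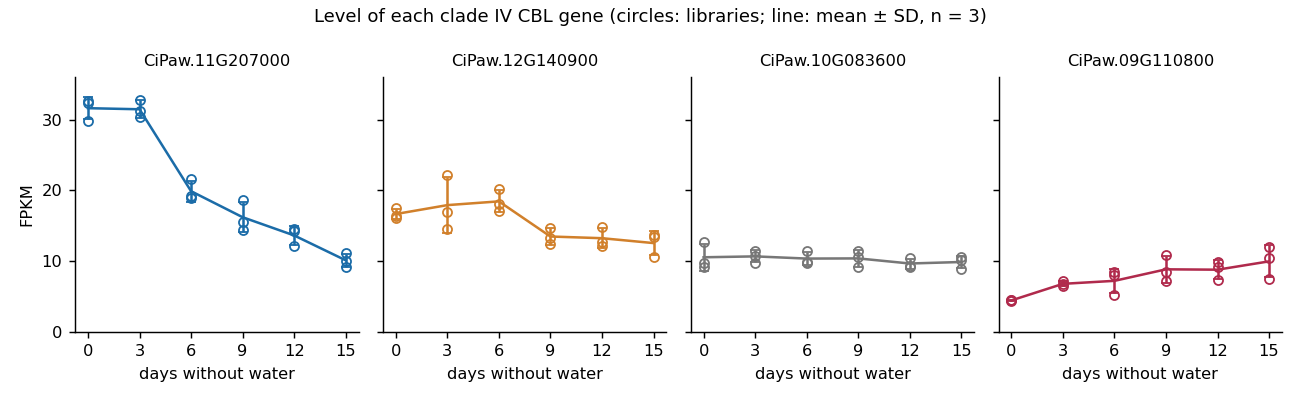
FPKM of each of the 4 clade IV *CBL* genes (vertical axis, same scale in every panel) against days without water, with a circle for each library and a line through the means with bars of 1 SD (n = 3 per day). *CiPaw.11G207000* lies at 10.1 FPKM at 15 d and 31.6 FPKM at 0 d, whereas *CiPaw.09G110800* lies at 9.96 FPKM at 15 d and 4.44 FPKM at 0 d and *CiPaw.10G083600* stays between 9.65 and 10.7 FPKM on average.

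*CiPaw.09G110800*, the least abundant copy at 0 d, moved the opposite way. Its FPKM was 4.49, 4.39 and 4.43 at 0 d, 7.18, 6.47 and 6.69 at 3 d, 7.98, 8.41 and 5.22 at 6 d, 8.46, 10.9 and 7.13 at 9 d, 9.92, 9.1 and 7.32 at 12 d, and 10.4, 7.52 and 11.95 at 15 d. Each of the 15 later libraries exceeded every library of 0 d, but from 3 d on the libraries of each day overlapped with those of the next. The mean was 9.96 ± 2.25 FPKM at 15 d and 4.44 ± 0.0503 FPKM at 0 d (SD, n = 3 each), a ratio of 2.24. Of this gain of 5.52 FPKM, 2.34 FPKM (42.5%) was present at 3 d.

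The libraries of 0 d were very close for this gene, whereas those of 6, 9 and 15 d were spread out, and limma pools this spread over all days. The log2 fold change was 0.52 at 3 d (adjusted p from limma = 0.403) and 0.57 at 6 d (0.0816), neither of which was called. The calls began at 9 d (0.84, adjusted p from limma = 0.0115), followed by 12 d (0.84, 0.00829) and 15 d (0.99 with a standard error of 0.21 and a 95% interval of 0.55 to 1.43, 9.91e-04). The difference at 6 d passed the threshold without 6 d replicate 3, the lowest library of that day (0.76, adjusted p from limma = 0.0358).

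*CiPaw.12G140900* was the second most abundant copy at 0 d. Its FPKM was 16.37, 16.07 and 17.5 at 0 d, 14.6, 22.22 and 16.9 at 3 d, 20.14, 17.13 and 18.04 at 6 d, 12.4, 13.32 and 14.69 at 9 d, 12.72, 12.15 and 14.82 at 12 d, and 10.52, 13.66 and 13.44 at 15 d. The libraries of 9, 12 and 15 d were all below those of 0 d, and 3 d replicate 2 was the highest of the 18. The mean was 12.5 ± 1.75 FPKM at 15 d and 16.6 ± 0.754 FPKM at 0 d (SD, n = 3 each). The log2 fold change was -0.29 at 9 d (adjusted p from limma = 0.187) and -0.31 at 12 d (0.131), neither of which was called.

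At 15 d *CiPaw.12G140900* was called lower than at 0 d, with a log2 fold change of -0.39, a standard error of 0.15 and a 95% interval of -0.72 to -0.06 (adjusted p from limma = 0.0421). This call was near the threshold and depended on the scaling. It was lost after median-ratio scaling (-0.056, adjusted p from limma = 0.813), after quantile normalization (-0.15, 0.468) and with library sums set equal (-0.35, 0.0740). It was also lost without any of 0 d replicates 1, 2 and 3, 9 d replicate 2, 12 d replicate 1 and 15 d replicate 1, with a log2 fold change of -0.45 to -0.28 over the 18 libraries left out in turn.

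*CiPaw.10G083600* stayed within a narrow range in the deposited values. Its FPKM was 9.68, 9.17 and 12.75 at 0 d, 10.77, 11.44 and 9.77 at 3 d, 9.9, 9.75 and 11.4 at 6 d, 9.12, 10.61 and 11.39 at 9 d, 9.14, 10.46 and 9.36 at 12 d, and 8.91, 10.56 and 10.13 at 15 d. The libraries of all days overlapped, and 0 d replicate 3 was the highest. Its mean was 9.87 ± 0.856 FPKM at 15 d and 10.5 ± 1.94 FPKM at 0 d (SD, n = 3 each). The log2 fold change was -0.08 with a standard error of 0.15, and its 95% interval of -0.39 to 0.24 leaves room for a moderate change in either direction (adjusted p from limma = 0.686). The sign was positive after median-ratio scaling (0.25, adjusted p from limma = 0.162) and quantile normalization (0.26, 0.199), where it was not called either.

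**Figure D2:**
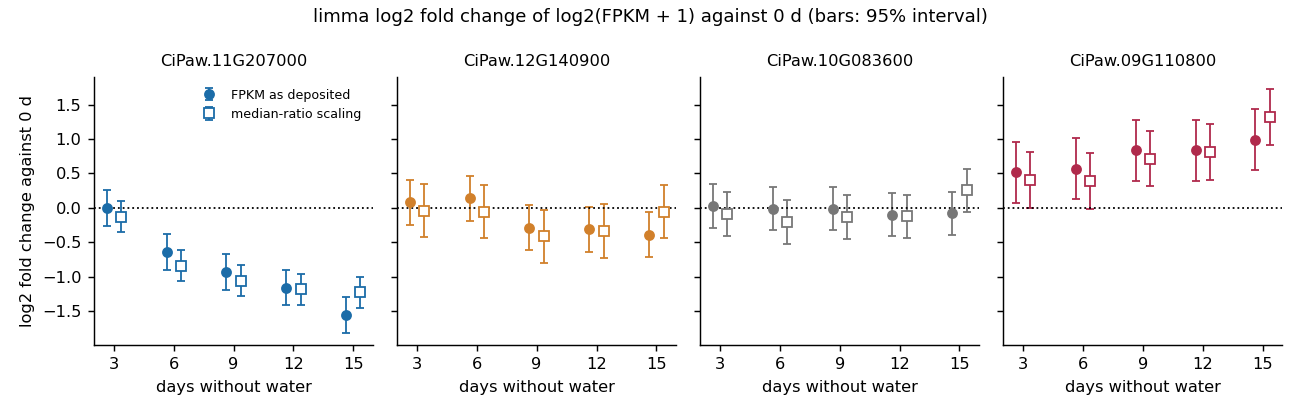
Log2 fold change of log2(FPKM + 1) against 0 d from limma (vertical axis) for 3 to 15 d without water, with bars of the 95% interval, in a panel for each gene; filled circles are the deposited FPKM and open squares the values after median-ratio scaling. At 15 d *CiPaw.11G207000* lies at -1.56 and *CiPaw.09G110800* at 0.99 with the deposited values, and the interval of *CiPaw.12G140900* includes 0 only after scaling.

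Of the 4 copies, 0 were called at 3 d, when 0.0286% of all genes tested were called. At 6 d *CiPaw.11G207000* was called, 1 copy of 4, beside 13.9% of all genes. At 9 d and at 12 d *CiPaw.11G207000* and *CiPaw.09G110800* were called, 2 copies of 4, beside 23.2% and 31.1% of all genes. At 15 d 2 copies were called lower and 1 higher, beside 34% of all genes called lower and 22.1% called higher. Between neighbouring days 1 copy was called at 6 against 3 d, 0 at 9 against 6 d, 0 at 12 against 9 d and 1 at 15 against 12 d, beside 5.02%, 0.00409%, 0% and 20.3% of all genes. At an unadjusted p from limma under 0.05 there were 2751 genes at 3 against 0 d, 1677 at 9 against 6 d and 465 at 12 against 9 d. With no difference at all, a share of about 0.05 of the 24443 genes tested would pass. Under it lay *CiPaw.09G110800* at 3 against 0 d (unadjusted p from limma = 0.0252). At 9 against 6 d *CiPaw.11G207000* (0.0334) and *CiPaw.12G140900* (0.0144) did, while the lowest of the copies at 12 against 9 d was 0.0763. With 4 genes the counts of copies stand beside the background without setting the clade apart from it.

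Across all 6 days, limma's moderated F-test called 3 copies of 4, beside 57.8% of all genes. Its adjusted p from limma was 6.38e-06 for *CiPaw.11G207000*, 0.00920 for *CiPaw.09G110800*, 0.0243 for *CiPaw.12G140900* and 0.949 for *CiPaw.10G083600*. For *CiPaw.12G140900* this call was lost after median-ratio scaling (adjusted p from limma = 0.205), after quantile normalization (0.133), and without 6 d replicate 1 or 15 d replicate 1.

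A share of the clade is taken within a library, so that it does not depend on how libraries are scaled to each other. *CiPaw.11G207000* made up 23.8 ± 0.178% of the summed FPKM of the clade at 15 d, against 50.0 ± 2.14% at 0 d (SD, n = 3 each). On the days between, its share was 47.2 ± 3.62% on day 3, 35.6 ± 2.61% on day 6, 33.1 ± 2.56% on day 9 and 30.0 ± 2.04% on day 12. The libraries of 15 d, at 23.6 to 23.9%, lay below those of every other day, and those of 0 and 3 d, at 43.0 to 52.4%, above all later ones. The libraries of 15 and 12 d did not overlap in this share (23.8% and 30.0% on average, exact permutation p = 0.1, two-sided).

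The share of *CiPaw.09G110800* was 7.03 ± 0.418% on day 0, 10.2 ± 1.04% on day 3, 12.9 ± 3.22% on day 6, 18.1 ± 4.01% on day 9, 19.3 ± 2.39% on day 12 and 23.4 ± 4.71% on day 15 (SD, n = 3 each). The mean was higher at each day than at the day before, and the libraries of every later day were above those of 0 d. The spread also widened, with 18.02 to 26.6% among the libraries of 15 d.

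*CiPaw.10G083600*, whose FPKM as deposited hardly moved, took 16.6 ± 2.19% of the clade on day 0, 16.0 ± 1.09% on day 3, 18.5 ± 1.54% on day 6, 21.2 ± 0.734% on day 9, 21.3 ± 1.39% on day 12 and 23.3 ± 1.83% on day 15 (SD, n = 3 each). Its libraries of 9, 12 and 15 d were above those of 0 d, and the summed FPKM of the clade was lower on those days.

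The share of *CiPaw.12G140900* was 26.3 ± 0.696% on day 0, 26.7 ± 4.43% on day 3, 33.0 ± 2.13% on day 6, 27.6 ± 1.01% on day 9, 29.3 ± 4.14% on day 12 and 29.5 ± 2.95% on day 15 (SD, n = 3 each). It was highest at 6 d, where its libraries of 31.4 to 35.4% were above those of 0 d at 25.8 to 27.1% (exact permutation p = 0.1, two-sided). At 6 d its own FPKM was still 18.4 ± 1.54, while *CiPaw.11G207000* was already at 19.9 ± 1.46 FPKM.

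**Figure D3:**
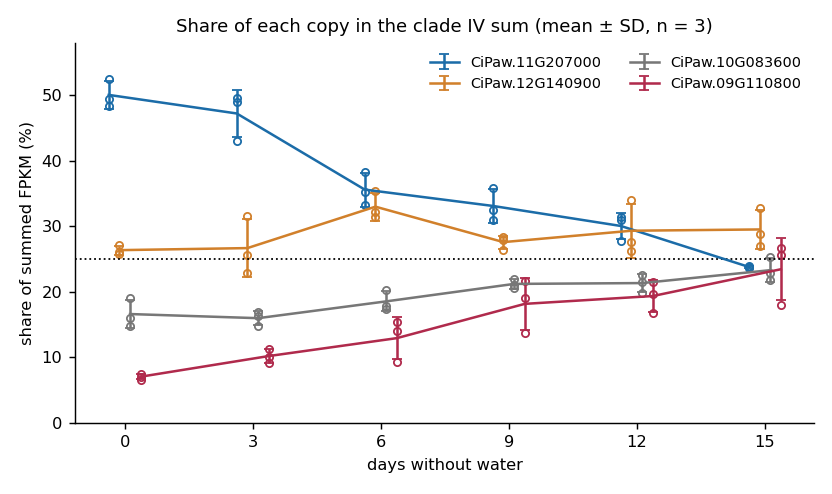
Share of each copy in the summed FPKM of the 4 clade IV *CBL* genes (percent, vertical axis) against days without water, with a circle for each library, a line through the means and bars of 1 SD (n = 3 per day); the dotted line marks equal shares. The shares of the 4 copies lie between 23.3 and 29.5% on average at 15 d and between 7.03 and 50.0% at 0 d.

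Each share was tested for differences between the 6 days by permuting its F statistic over the 18 libraries (100000 resamples), adjusted over the 4 shares. These sum to 100% in each library, so the tests are not independent. The adjusted permutation p was 4e-05 for *CiPaw.11G207000*, from a p of 1e-05 that is the smallest the resamples can give. It was 4e-04 for *CiPaw.09G110800*, 6e-04 for *CiPaw.10G083600* and 0.132 for *CiPaw.12G140900*. Between 15 and 0 d the shares differed by -26.2, 16.4, 6.69 and 3.16 percentage points in the same order. Libraries of 15 and 0 d did not overlap for the first 3 of these (exact permutation p = 0.1 each, two-sided, the smallest that 3 against 3 allows), and overlapped for *CiPaw.12G140900* (exact p = 0.2). How often shares within other groups of genes separate was not counted. The test for *CiPaw.12G140900* passed the threshold without 3 d replicate 2 (adjusted permutation p = 0.0354).

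The evenness of the clade can be given as an effective number of copies, the exponential of the Shannon entropy of the shares, which reaches 4 when all copies are equal. It was 3.26 ± 0.0686 on day 0, 3.42 ± 0.0546 on day 3, 3.69 ± 0.0967 on day 6, 3.88 ± 0.0854 on day 9, 3.91 ± 0.0408 on day 12 and 3.96 ± 0.0412 on day 15 (SD, n = 3 each). The highest copy of a library had 1.18 to 1.82 times the FPKM of the lowest at 15 d, against 6.64 to 7.44 times at 0 d.

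The order of the copies changed with it. In all 6 libraries of 0 and 3 d the order was *CiPaw.11G207000*, *CiPaw.12G140900*, *CiPaw.10G083600* and *CiPaw.09G110800*, from high to low. *CiPaw.12G140900* was above *CiPaw.11G207000* in 1 of 3 libraries at 6 d, 0 of 3 at 9 d, 1 of 3 at 12 d and 3 of 3 at 15 d. *CiPaw.09G110800* was above *CiPaw.10G083600* in 1 of 3 libraries at 9 d, 1 of 3 at 12 d and 2 of 3 at 15 d. At 15 d *CiPaw.12G140900* was the highest copy in 3 of 3 libraries, and the other copies, with means of 10.1, 9.96 and 9.87 FPKM, lay within each other's spread.

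The ratio of any 2 copies within a library tests whether they moved differently. For *CiPaw.09G110800* over *CiPaw.11G207000*, the log2 ratio was -0.04 ± 0.32 at 15 d and -2.83 ± 0.09 at 0 d (SD, n = 3 each). This difference of 2.79 was the largest of the 6 pairs (permutation p over days, adjusted over the 6 pairs, 3e-05). For *CiPaw.10G083600* over *CiPaw.11G207000* the log2 ratio was -0.03 ± 0.11 at 15 d and -1.60 ± 0.24 at 0 d, a difference of 1.57 (3e-05). *CiPaw.12G140900* over *CiPaw.11G207000* had 0.31 ± 0.13 at 15 d and -0.92 ± 0.09 at 0 d, a difference of 1.23 (2e-04). *CiPaw.11G207000* thus moved differently from each of the other 3 copies. Its ratios to genes outside the clade were not tested, so this does not set these copies apart from other genes.

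The other 3 ratios, which leave out *CiPaw.11G207000*, also differed between days. *CiPaw.09G110800* over *CiPaw.12G140900* had a log2 ratio of -0.35 ± 0.45 at 15 d and -1.91 ± 0.07 at 0 d, a difference of 1.56 (adjusted permutation p = 0.00257). *CiPaw.09G110800* over *CiPaw.10G083600* had -0.01 ± 0.42 at 15 d and -1.23 ± 0.25 at 0 d, a difference of 1.22 (0.0146), and this passed the threshold no longer without 0 d replicate 3 (0.0530). *CiPaw.10G083600* over *CiPaw.12G140900* had -0.34 ± 0.09 at 15 d and -0.67 ± 0.19 at 0 d, a difference of 0.34 (0.0325). That call was lost in 7 of 18 fits with a library left out, namely 3 d replicate 3, 6 d replicates 1 and 2, 9 d replicates 2 and 3, and 15 d replicates 1 and 2 (adjusted permutation p up to 0.0697), and also with the replicate number as a block (adjusted permutation p = 0.0615). For each of the 6 ratios the libraries of 15 and 0 d did not overlap (exact permutation p = 0.1 each, two-sided, n = 3 against 3). How many ratios of other genes separate in this way was not counted. At 15 d, 34% of all genes tested were called lower than at 0 d and 22.1% higher, so such separation need not be particular to the clade.

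**Figure D4:**
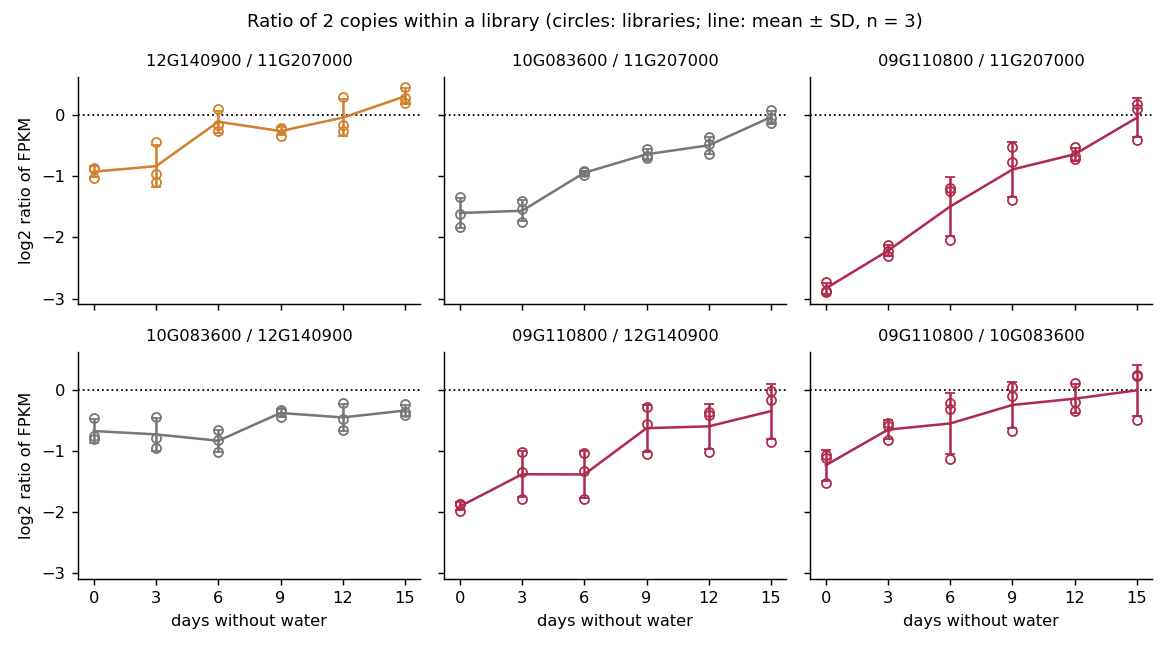
Log2 ratio of the FPKM of 2 copies within a library (vertical axis) against days without water for the 6 pairs, with a circle for each library, a line through the means and bars of 1 SD (n = 3 per day); the dotted line marks equal levels. All 6 ratios are higher at 15 d than at 0 d, by 2.79 for *CiPaw.09G110800* over *CiPaw.11G207000* and by 0.34 for *CiPaw.10G083600* over *CiPaw.12G140900*.

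The summed FPKM of the clade was 60.34 to 67.07 on day 0, 63.78 to 70.44 on day 3, 54.5 to 56.88 on day 6, 44.41 to 51.81 on day 9, 43.56 to 46.24 on day 12 and 39.04 to 46.63 on day 15. From 6 d on all libraries lay below those of 0 and 3 d (permutation p over days = 1e-05, the smallest the resamples can give). Of the difference of -20.8 FPKM between 15 and 0 d (-32.8%), *CiPaw.11G207000* accounted for -21.5 FPKM, *CiPaw.12G140900* for -4.11 FPKM and *CiPaw.10G083600* for -0.667 FPKM, while *CiPaw.09G110800* added 5.52 FPKM. The size of the fall depended on the scaling. After median-ratio scaling the sum was 55.0 ± 0.280 at 15 d and 64.0 ± 1.83 at 0 d (SD, n = 3 each), a difference of -9.03 (-14.1%). In it *CiPaw.11G207000* had -19.0, *CiPaw.12G140900* -0.634, *CiPaw.10G083600* 2.17 and *CiPaw.09G110800* 8.38. After quantile normalization the difference of the sum was -11.5 (-17.5%), and the permutation p over days stayed under 0.05 in both scales (9e-05 and 6e-05).

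The typical gene was itself lower at 15 d, with a median log2 fold change of -0.24 in the deposited values, against -0.03 after median-ratio scaling. Relative to the median of all genes, the log2 fold changes at 15 d were -1.32 for *CiPaw.11G207000*, -0.15 for *CiPaw.12G140900*, 0.16 for *CiPaw.10G083600* and 1.23 for *CiPaw.09G110800*. For *CiPaw.11G207000* and *CiPaw.09G110800* the sign was the same with and without this subtraction. Of all genes tested, 16.0% had a lower log2 fold change at 15 d than *CiPaw.11G207000*, 43.8% than *CiPaw.12G140900*, 57.1% than *CiPaw.10G083600* and 85.2% than *CiPaw.09G110800*. The loss of *CiPaw.11G207000* and the gain of *CiPaw.09G110800* were thus sizes that many genes of the leaf reached.

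**Figure D5:**
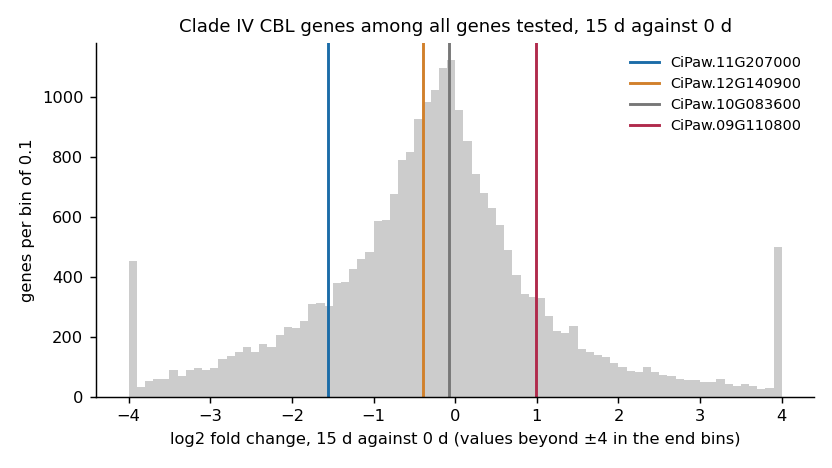
Number of genes per bin of 0.1 (vertical axis) by log2 fold change of log2(FPKM + 1) at 15 d against 0 d (horizontal axis) for the 24443 genes tested, with values beyond 4 in size put in the end bins and a vertical line for each clade IV *CBL* gene. *CiPaw.11G207000* at -1.56 and *CiPaw.09G110800* at 0.99 lie on opposite flanks, and *CiPaw.12G140900* at -0.39 and *CiPaw.10G083600* at -0.08 lie near the centre.

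All 4 copies were expressed near or above the middle of the genes tested, with a mean FPKM over 18 libraries of 20.5 for *CiPaw.11G207000*, 15.4 for *CiPaw.12G140900*, 10.2 for *CiPaw.10G083600* and 7.66 for *CiPaw.09G110800*, against a median gene of 8.16. They varied little between libraries of a day. The SD within days on the log2 scale was 0.12 for *CiPaw.11G207000*, 0.17 for *CiPaw.12G140900*, 0.14 for *CiPaw.10G083600* and 0.23 for *CiPaw.09G110800*, against 0.34 for the median gene. For *CiPaw.11G207000*, 97.2% of the variance of log2(FPKM + 1) lay between days, against 65.3% for the median gene. For *CiPaw.10G083600* it was 12.9%, and its day means spanned 0.13 on the log2 scale, against 1.08 for the median gene. This narrow span held for the deposited values: it was 0.45 with median-ratio scaling and 0.47 with quantile normalization, with the highest mean at 15 d, and the F over all days was 2.36 and 1.90 in place of 0.227, uncalled in each case (adjusted p from limma of 0.136, 0.211 and 0.949).

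Over the 18 libraries the levels of *CiPaw.09G110800* and *CiPaw.11G207000* ran in opposite directions. Pearson's r was -0.756 (adjusted over the 6 pairs, permutation p = 0.00204) and Spearman's rho -0.769. Without the 2 libraries farthest from the median of the x axis r was -0.675, and after subtraction of the day means it was -0.127. The relation was thus seen mainly between days, and whether a weaker one holds within days was not tested. *CiPaw.12G140900* and *CiPaw.11G207000* had an r of 0.691 (adjusted permutation p = 0.00432) and a rho of 0.674, with 0.586 without the 2 farthest libraries and 0.0723 within days. After median-ratio scaling the r of this pair was 0.446 and it was no longer called. *CiPaw.09G110800* and *CiPaw.12G140900* had an r of -0.593 (adjusted permutation p = 0.0186) and a rho of -0.697, with -0.606 without the 2 farthest libraries and -0.299 within days, and -0.268 after median-ratio scaling, where it was not called. The 3 pairs with *CiPaw.10G083600* were not called, and their r ranged from -0.338 to 0.443. The permutation p of all 6 pairs treats the 18 libraries as exchangeable, although libraries of the same day share its treatment. It therefore overstates the evidence for any relation beyond differences between days.

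By the likeness of log2(FPKM + 1) over the 18 libraries, the gene nearest to *CiPaw.11G207000* was CIL1082S0124, with a Pearson r of 0.981, and 0.418 after subtraction of the day means. CIL1082S0124 had 15.7 ± 1.79 FPKM at 15 d and 82.5 ± 9.94 FPKM at 0 d (SD, n = 3 each). In all, 614 genes (2.51%) had an r of at least 0.9 with *CiPaw.11G207000*, and 892 genes had an r under -0.9. For *CiPaw.09G110800* the nearest gene was CIL0465S0011 (r of 0.869, and 0.564 within days), with 24.8 ± 0.699 FPKM at 15 d and 14.7 ± 1.07 FPKM at 0 d. For *CiPaw.12G140900* it was CIL0922S0072 (r of 0.884, and 0.767 within days), with 37.5 ± 1.05 FPKM at 15 d and 81.9 ± 23.4 FPKM at 0 d. For *CiPaw.10G083600* the highest r of any gene was 0.785. No gene reached an r of 0.9 with these last 3 copies. The files pair none of these identifiers with a gene name.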

How the data were processed

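Libraries of cDNA from poly(A)-selected leaf RNA were sequenced on an Illumina NovaSeq. The processing notes name fastp 0.18.0, Bowtie2 2.2.8, HISAT2, StringTie 1.3.1 and RSEM, and the genome build is not given in the sources used here. The authors deposited FPKM with 2 decimals for every gene in every library and no fragment counts, so the depth and the counting error of each value are unknown. Columns were mapped to libraries by name, and 0 were left aside. None of the 31074 identifiers matched the RefSeq gene table of pecan (0 matched).

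FPKM was transformed as log2(FPKM + 1). For genes with little FPKM the added 1 makes fold changes smaller than they are. Genes whose FPKM averaged 0.1 or more entered limma 3.58.1 (R 4.3.3), which fitted 1 mean per day over all 18 libraries and used eBayes with a trend. Shares, ratios and sums were tested by permutation in Python 3.11.15 with scipy 1.17.1. Scripts were tested on simulated data. Alternatives were a pseudocount of 0.1, median-ratio scaling, quantile normalization, equal library sums (TPM), no filter or a minimum mean of 1 FPKM, robust eBayes, a replicate block, other forms of the share and the ratio, and each library left out in turn. Besides the 4 copies, the text names the gene most correlated with each copy, up to 2 that rose and 2 that fell. The members and lists were chosen with earlier results of these data known.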

Additional observations from a re-analysis of the deposited data

How the results depend on the processing

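The shares of *CiPaw.11G207000*, *CiPaw.09G110800* and *CiPaw.10G083600* and the clade sum kept their calls under each alternative run, and so did 4 of the 6 pair ratios and the limma calls of *CiPaw.11G207000* against 0 d. Median-ratio scaling and equal library sums divide a whole library by the same factor. They cannot change a share or a ratio within a library, so for these they are no test. After median-ratio scaling or quantile normalization, the log2 fold change at 15 d was 0.25 or 0.26 for *CiPaw.10G083600* (against -0.08, uncalled throughout) and -0.056 or -0.15 for *CiPaw.12G140900*, uncalled, with an F over all days of 1.92 or 2.40. The F of *CiPaw.10G083600* was 2.36 or 1.90 (against 0.227, uncalled throughout), and the clade sum differed by -9.03 or -11.5 (against -20.8). The copies called at 15 against 12 d numbered 0 under either, as *CiPaw.11G207000* then had -0.04 or -0.05. With equal library sums *CiPaw.12G140900* had -0.35 at 15 d, uncalled, *CiPaw.11G207000* had 0.025 at 3 d, and 2 copies were called at 6 d, with 0.68 for *CiPaw.09G110800*. The causes were not tested.

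The correlations of levels were also run with other scalings, chosen after seeing the data. Under median-ratio scaling or quantile normalization, r was 0.446 or 0.515 for *CiPaw.12G140900* with *CiPaw.11G207000*, -0.0546 or -0.130 for *CiPaw.10G083600* with *CiPaw.11G207000*, -0.268 or -0.354 for *CiPaw.09G110800* with *CiPaw.12G140900*, and 0.280 or 0.375 for *CiPaw.09G110800* with *CiPaw.10G083600*, none of them called.

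With each library left out in turn, the log2 fold change at 15 d lay between -0.16 and 0.057 for *CiPaw.10G083600* (positive without 0 d replicate 3) and between -0.45 and -0.28 for *CiPaw.12G140900*, whose F lay between 3.49 and 5.77. *CiPaw.11G207000* at 3 d lay between -0.047 and 0.019 (positive without 0 d replicate 2 or 3 or 3 d replicate 2). Its step at 15 against 12 d lay between -0.48 and -0.34 and was lost without 12 d replicate 1 or 2 or 15 d replicate 1 or 2. In those fits 0 copies were called at this step, and over all 18 fits 0 to 1. The count at 6 d was 1 to 2 (2 without 6 d replicate 3). The difference between 15 and 0 d lay between 0.27 and 0.44 for the log2 ratio of *CiPaw.10G083600* over *CiPaw.12G140900*, between 1.08 and 1.46 for *CiPaw.09G110800* over *CiPaw.10G083600*, and between 1.54 and 4.44 percentage points for the share of *CiPaw.12G140900*. Without 0 d replicate 2 the correlations of *CiPaw.10G083600* with *CiPaw.11G207000* (0.248 to 0.502), *CiPaw.12G140900* (0.341 to 0.511) and *CiPaw.09G110800* (-0.511 to -0.141) were called.

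Replicate numbers are shared between days, but of 45 pairs of libraries with the same number 15 had deviations from the day means that correlated above 0.1 (median -0.0352), and 5 of 18 libraries correlated best with their own number. This check gave no sign that the numbers pair the samples, but it cannot exclude such a pairing. With the replicate block, the ratio of *CiPaw.10G083600* over *CiPaw.12G140900* (0.34) had an adjusted permutation p of 0.0615, and no other call changed. No counts are held in FPKM, so counting error could not be separated from the spread between libraries.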
